A study of Saccharomyces cerevisiae with 6 samples.

Results

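The mitochondrial respiratory chain passes electrons from NADH and succinate through coenzyme Q, complex III (the cytochrome bc1 complex), cytochrome c and complex IV (cytochrome c oxidase) to oxygen. The proton gradient that results drives the ATP synthase. In budding yeast most subunits are encoded in the nucleus, a few in mitochondrial DNA, and many of the nuclear genes are activated on respiratory carbon sources by the Hap2/3/4/5 complex, which binds CCAAT sequences. The genes described here are 37 nuclear genes chosen by their systematic names: 15 of the ATP synthase and its inhibitor, 9 of complex III, 9 of complex IV, the cytochrome c genes CYC1 and CYC7, and SDH3 and SDH4, which anchor complex II (succinate dehydrogenase) in the inner membrane. Of the 7554 transcripts in the deposited table, 36 are these genes; ATP14 is not analysed here. Another 4 (ATP19, QCR6, COX9 and CYC7) had a mean under 1 TPM and were not tested, which left 32 tested genes.

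RNA from Saccharomyces cerevisiae was compared between strain yMH007, which contains the artificial data-carrying chromosome dChr, and strain yMH104, the control, which carries an empty plasmid, with 3 libraries each. The medium was SC-Ura, a synthetic medium without uracil, and cultures of either strain grew at 30 °C from an optical density of 0.2 to between 1.0 and 1.2. The labels do not say how many clones a strain stands for, whether the 3 libraries came from separate cultures, or which carbon source the medium held. The p-values therefore measure the spread between these libraries, which may be technical. Values are TPM, an abundance divided by transcript length and scaled to a common total. Levels of different genes are set side by side below. Listed levels were lower for shorter genes, and whether reads of short genes were placed elsewhere was not tested. Read depth cannot be read from TPM. In RNA from a whole culture, less transcript per cell and fewer cells with the transcript cannot be told apart.

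The promoters below belong to the genes that passed the test (COX4, QCR8 and CYC1) and to COX5B and CYC7, the low-oxygen forms of a complex IV subunit and of cytochrome c. Each runs from 250 bases before to 50 bases after the annotated start of the gene on the RefSeq R64 assembly (the assembly known as sacCer3), 5′ to 3′ on the strand of the gene. That start is the first base of the start codon, not the place where transcription begins. The last 50 bases therefore lie inside the gene. Capitals mark CCAAT on either strand, the core of the sequence that the Hap complex binds.
COX4, chrVII:150122-150421, minus strand: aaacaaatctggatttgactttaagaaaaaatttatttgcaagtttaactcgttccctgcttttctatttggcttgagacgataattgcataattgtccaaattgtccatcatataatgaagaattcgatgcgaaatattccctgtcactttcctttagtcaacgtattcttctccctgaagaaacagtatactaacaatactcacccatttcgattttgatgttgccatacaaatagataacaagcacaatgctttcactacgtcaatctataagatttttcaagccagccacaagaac
QCR8, chrX:106184-106483, plus strand: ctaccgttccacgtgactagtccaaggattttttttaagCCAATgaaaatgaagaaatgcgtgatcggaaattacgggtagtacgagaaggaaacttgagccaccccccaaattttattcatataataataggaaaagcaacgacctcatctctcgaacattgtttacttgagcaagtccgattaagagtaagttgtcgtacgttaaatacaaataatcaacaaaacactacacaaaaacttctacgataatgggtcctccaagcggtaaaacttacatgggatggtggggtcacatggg
CYC1, chrX:526085-526384, plus strand: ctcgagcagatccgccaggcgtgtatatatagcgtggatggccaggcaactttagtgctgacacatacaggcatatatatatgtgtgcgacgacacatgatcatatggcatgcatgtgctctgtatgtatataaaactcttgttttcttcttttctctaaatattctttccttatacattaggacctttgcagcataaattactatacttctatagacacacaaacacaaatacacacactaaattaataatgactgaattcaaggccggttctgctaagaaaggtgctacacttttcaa
COX5B, chrIX:154972-155271, plus strand: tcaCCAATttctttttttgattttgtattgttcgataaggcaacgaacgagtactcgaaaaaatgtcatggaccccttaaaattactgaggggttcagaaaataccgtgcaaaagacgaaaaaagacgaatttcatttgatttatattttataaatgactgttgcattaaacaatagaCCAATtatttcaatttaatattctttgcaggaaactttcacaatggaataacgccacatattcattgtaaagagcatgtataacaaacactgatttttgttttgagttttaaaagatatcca
CYC7, chrV:79928-80227, minus strand: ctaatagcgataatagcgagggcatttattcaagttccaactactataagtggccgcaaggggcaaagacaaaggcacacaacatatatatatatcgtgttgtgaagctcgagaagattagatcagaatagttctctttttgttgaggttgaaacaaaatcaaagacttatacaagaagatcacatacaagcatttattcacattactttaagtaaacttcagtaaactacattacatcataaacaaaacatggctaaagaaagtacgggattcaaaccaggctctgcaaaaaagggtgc
CCAAT stood once in the QCR8 window, 211 bases before the start, and at 247 and 72 bases before the start of COX5B. The COX4, CYC1 and CYC7 windows held none, which says only that these letters are not in these 300 bases. Of the 37 promoters 31 held CCAAT on at least 1 strand (83.8%), against 43.3% of all 6001 protein-coding promoters of the same length, and 15 held 2 or more copies (40.5% against 10.9%). In ATP16, RIP1, QCR7, COX7 and COX9 1 of the 2 copies lay after the annotated start, inside the gene. In ATP2 a pair of copies on opposite strands overlap. The 6 without a copy were those of ATP1, CYT1, COR1, COX4, CYC1 and CYC7. These matches describe the sequence alone.

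The level of most of these genes was close in the 2 strains, and a few single genes differed. COX4, a subunit gene of complex IV, fell 3.14-fold in the dChr strain, from 91.0 ± 7.09 to 29.0 ± 6.08 TPM (SD, n = 3). CYC1, the main cytochrome c gene, fell from 106 ± 20.9 to 61.5 ± 2.62 TPM, and QCR8, a subunit gene of complex III, rose from 64.6 ± 1.86 to 88.1 ± 3.45 TPM. In all, 1 of 32 tested genes rose and 2 fell (limma, Benjamini-Hochberg adjusted p under 0.05), or 9.38%, against 13.4% of all 5938 transcripts tested. By direction, the background was 4.19% higher and 9.16% lower. The share lay under the background, so the count is not a result about the group as a whole. Without dChr library 1 or 2 COX4 was the only gene called, and without dChr library 3 or control library 2 COX4 and QCR8 were. The omission of control library 3 left COX4 and QCR8 and added ATP20. The median difference over the 32 genes was -0.01 on the log2(TPM + 1) scale, against -0.04 over all transcripts tested. The 95% interval of the difference lay within 1.5-fold in both directions for 21 of the 32 genes (65.6%, against 44.1% of all transcripts tested) and within 2-fold for 27. The other 5 were COX4, CYC1, RIP1, ATP20 and COX7. These limits are on the log2(TPM + 1) scale. The 36 listed genes stood at a higher median than all transcripts tested (37.8 against 10.1 TPM), and low genes are the least precise. The shares within 1.5-fold were not matched for level, so they do not show that these genes were steadier.

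Over all transcripts 249 rose and 544 fell. This split moved to 507 and 638 with median-ratio scaling and to 555 and 561 with quantile normalization, and the other way, to 178 and 647, without mitochondrial and non-coding transcripts. When a library was left out, 6.65% (without dChr library 1) to 10.7% (without control library 2) of transcripts were called. Leaving out dChr library 1 gave 113 rises and 282 falls. The same counts were 124 and 397 when dChr library 2 was omitted, 158 and 307 for dChr library 3, and 147 and 417 for control library 3. For 7 of the 32 genes (21.9%) every library of one strain lay above every library of the other, 3 higher in dChr and 4 lower, against 34.1% of all transcripts tested.

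**Figure D1:**
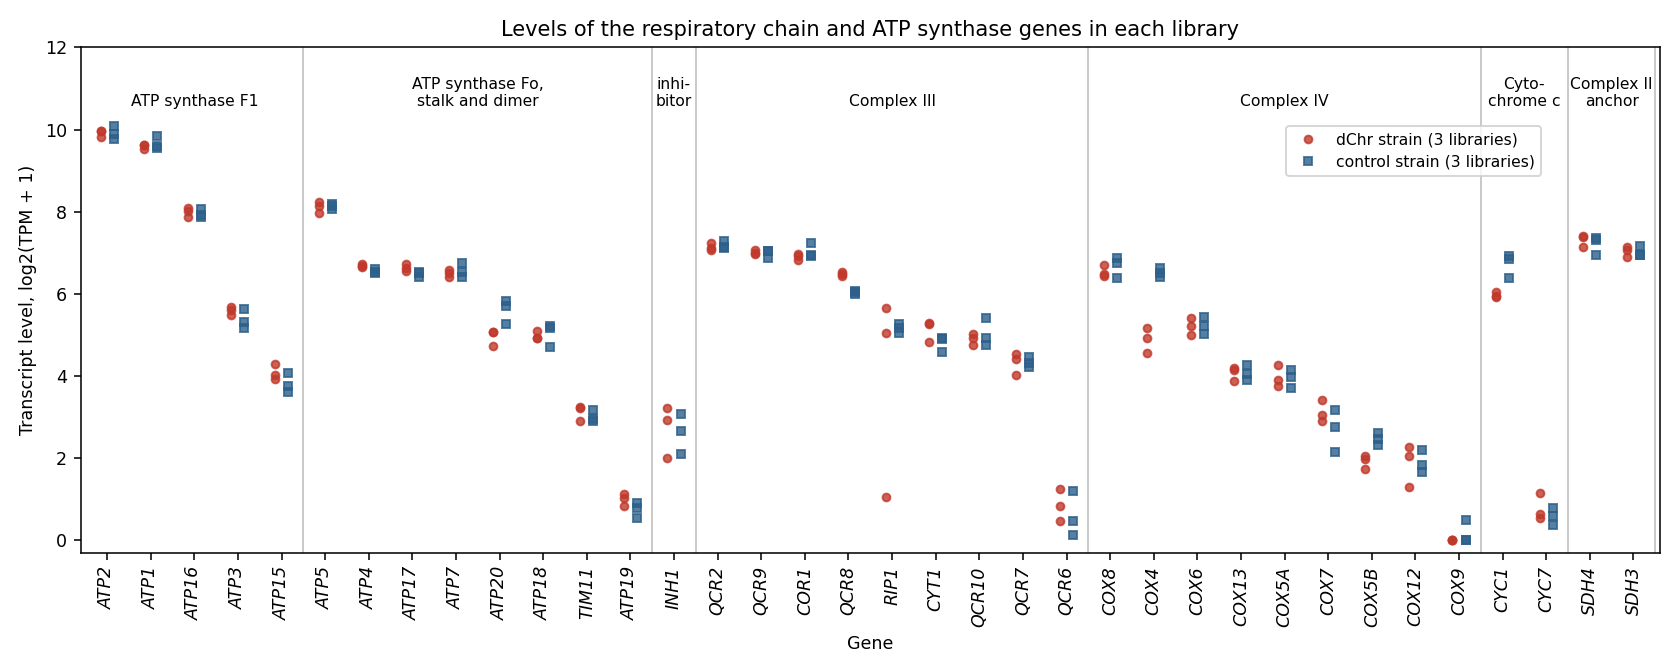
Levels of the 36 listed genes on the log2(TPM + 1) scale, grouped by complex; each red circle is a dChr library and each blue square a control library, 3 per strain. The levels span from COX9, at 0 in 5 libraries, to ATP2, and the strains lie apart in COX4, while 1 dChr library of RIP1 lies far below the rest.

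The genes of 1 machine were listed at very different levels. Averaged over the 6 libraries, 9 genes stood over 100 TPM, 18 between 10 and 100 TPM and 9 under 10 TPM, and their median was 37.8 TPM against 10.1 TPM for all transcripts tested. ATP2 and ATP1, the catalytic beta and the alpha subunit of the ATP synthase, were highest, at means of 964 and 792 TPM, and together gave 44.1% to 46.1% of the TPM of the 36 genes in a library. At the other end, COX9 (YDL067C), a small subunit of complex IV, was listed at 0.418 TPM in control library 1 and at 0 in the other 5 libraries. QCR6, a subunit of complex III, was between 0.101 and 1.40 TPM, and ATP19, a small subunit of the ATP synthase, between 0.469 and 1.20 TPM. Listed levels were higher for longer genes: the 12 genes under 300 coding bases had a median of 11.0 TPM and the 24 longer ones 71.9 TPM (Spearman rho = 0.58 across 36 genes, which share libraries and are not independent replicates). The table also holds 643 assembled transcripts without coordinates, and whether any of them holds reads of these short genes was not tested.

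The 36 genes together took 3919, 3988 and 3583 TPM in dChr libraries 1, 2 and 3 and 3857, 4334 and 3694 TPM in control libraries 1, 2 and 3. The strains overlapped, at 3830 ± 216 against 3962 ± 333 TPM (SD, n = 3). Libraries of the same strain differed in a shift that many of the genes shared. Of the 32 tested genes, 12 were highest in dChr library 2 and 11 in control library 2, and 1 each in dChr library 3 and control library 3. The median gene stood 0.14 above its mean of the 6 libraries in control library 2 and at -0.13 relative to it in dChr library 3 (log2 scale). Over all transcripts tested these medians were 0.15 and -0.07. Coding transcripts held 44.8%, 49.7% and 46.5% of the TPM in dChr libraries 1, 2 and 3. In control libraries 1, 2 and 3 they held 42.0%, 46.6% and 44.5%. Non-coding transcripts held 18.2% to 34.7% of a library and assembled transcripts 20.3% to 34.9%. TPM are scaled to a common total, so listed levels depend on these shares. Whether the shares gave the shift was not tested. Within each strain the highest library was under 1.5 times the lowest for 26 of the 32 genes. It was 2 times or more in at least 1 strain for INH1, RIP1, COX7 and COX12.

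In the ATP synthase no gene was called, 0 of 13 tested, and 1 had an unadjusted p under 0.05 (ATP20). All 5 genes of the catalytic head F1 were tested, and the interval lay within 1.5-fold for 4 of them. ATP2 (YJR121W) was at 1001, 989 and 895 TPM in the dChr libraries against 943, 1082 and 876 TPM in the controls (in order 1, 2 and 3). These overlap, and the difference was 0.00 ± 0.11 SE on the log2 scale, with a 95% interval from -0.27 to 0.26. The F1 gene with the smallest p was ATP15 (YPL271W), the epsilon subunit of the central stalk. It was at 15.3, 18.6 and 14.1 TPM in the dChr libraries against 15.9, 12.4 and 11.2 TPM in the controls (limma adjusted p = 0.341), with overlapping libraries.

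Of the membrane part, the stator stalk and the dimer subunits, ATP20 (YPR020W), subunit g, which helps the enzyme form dimers, stood apart. It was at 32.5, 32.4 and 25.3 TPM in the dChr libraries against 51.4, 55.8 and 37.3 TPM in the controls. Every dChr library was below every control library, and the difference was -0.65 ± 0.18 SE (limma adjusted p = 0.0621), short of the threshold. It passed under 6 of the 12 alternatives that kept every library and without control library 3, with adjusted p from 0.0151 to 0.168 over all 18 alternatives. TIM11, subunit e and another dimer subunit, had 7.75 ± 1.15 TPM in dChr cells against 7.04 ± 0.83 TPM in control cells (SD, n = 3; limma adjusted p = 0.641). ATP4 and ATP17, subunits b and f, were slightly higher in every dChr library, at 102 ± 2.83 against 92.2 ± 3.65 TPM and 98.8 ± 6.59 against 88.3 ± 4.38 TPM. Neither was called (limma adjusted p = 0.272 and 0.289) except with quantile normalization (0.0464 and 0.0483). INH1 (YDL181W), the protein that stops the enzyme from hydrolysing ATP, was at 3.03, 8.33 and 6.56 TPM in the dChr libraries against 5.34, 7.36 and 3.29 TPM in the controls. Its libraries overlapped (limma adjusted p = 0.885), and the 95% interval of its difference reached from -0.78 to 1.00.

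**Figure D2:**
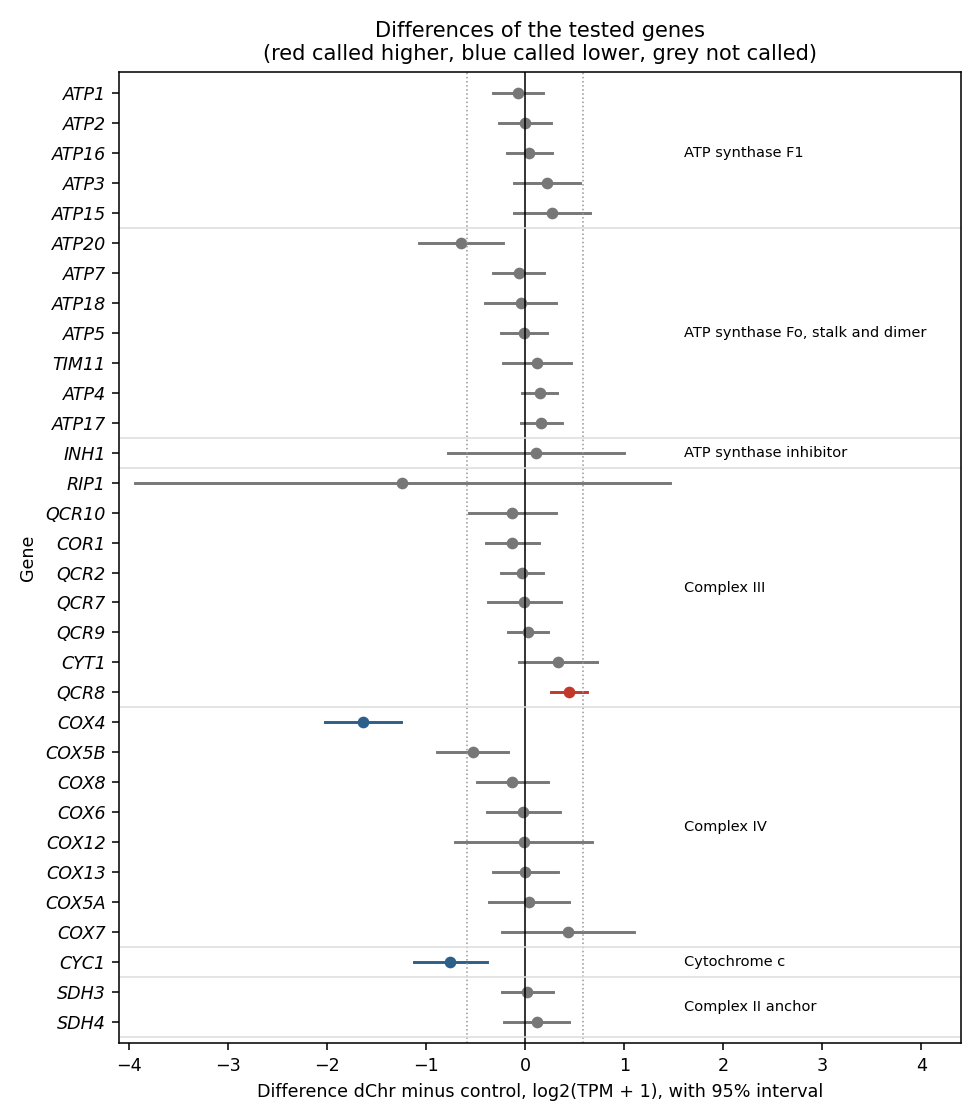
Difference between the strains for each of the 32 tested genes on the log2(TPM + 1) scale, dChr minus control, with its 95% interval from limma; red was called higher, blue lower and grey not called, and dotted lines mark a change of 1.5-fold. COX4 and CYC1 lie left of 0 and QCR8 right of it, RIP1 has the widest interval, and most others sit between the dotted lines.

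Of 8 tested genes of complex III, 1 rose and 0 fell, against 4.19% higher and 9.16% lower of all transcripts tested. QCR8 (YJL166W), a small subunit that lies close to cytochrome b, is a gene with 1 coding exon at chrX:106434-106718. It was at 87.7, 91.8 and 84.9 TPM in the dChr libraries against 64.8, 62.7 and 66.4 TPM in the controls. The libraries within a strain were close and the strains did not overlap, 1.36-fold higher in the dChr strain (log2 difference 0.44 ± 0.07 SE, limma adjusted p = 0.0124). The call did not hold when transcripts of other classes were removed and the rest rescaled: adjusted p was 0.115 without mitochondrial and non-coding transcripts and 0.0868 without assembled transcripts. The log2 difference was 0.36 in the former and 0.48 in the latter, against 0.44 with all transcripts. It was also lost without dChr library 1 or dChr library 2 (0.0601 and 0.0534). Over all 18 alternatives adjusted p ran from 0.00577 to 0.115.

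Other genes of complex III were not called. COR1 and QCR2, the large core proteins, were at 119 ± 5.57 against 131 ± 17.3 TPM and 141 ± 8.62 against 144 ± 9.66 TPM (dChr against control, SD, n = 3). CYT1 (YOR065W), cytochrome c1, was at 37.6, 38.1 and 27.3 TPM in the dChr libraries against 29.0, 29.1 and 22.9 TPM in the controls. Its strains overlapped (limma adjusted p = 0.256).

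RIP1 (YEL024W), the Rieske iron-sulfur protein, rested on 1 library. It was at 1.08 TPM in dChr library 1 and at 49.0 and 32.0 TPM in dChr libraries 2 and 3, against 31.8, 37.3 and 35.2 TPM in the control libraries. The difference was -1.24 ± 1.13 SE with all libraries (limma adjusted p = 0.527) and 0.19 without dChr library 1 (0.645). The other 8 listed genes of complex III summed to 574 TPM in that library, against 572 and 533 TPM in the other dChr libraries. What set RIP1 apart in that library was not tested.

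Complex IV held the gene with the largest difference among the 32 tested. COX4 (YGL187C) encodes subunit IV, a zinc-binding subunit without which the enzyme does not assemble, and lies at chrVII:149704-150171 on the minus strand with 1 coding exon. It was at 34.8, 29.4 and 22.7 TPM in the dChr libraries against 84.5, 90.1 and 98.6 TPM in the controls. The highest dChr library was less than the lowest control library by a wide margin, and the mean was 3.14-fold lower in the dChr strain, at 29.0 ± 6.08 against 91.0 ± 7.09 TPM (SD, n = 3). The log2 difference was -1.64 ± 0.16 SE with a 95% interval from -2.02 to -1.25 (limma adjusted p = 0.00165). The call held under each of the 18 alternatives, with differences from -1.77 to -1.48 when a library was left out and adjusted p of at most 0.0141.

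No other subunit gene of complex IV was called: of 8 tested, 0 rose and 1 fell, which was COX4. Of all transcripts tested 4.19% rose and 9.16% fell. COX6 was at 36.2 ± 5.36 against 36.8 ± 5.62 TPM, COX13 at 15.9 ± 1.96 against 16.0 ± 2.12 TPM and COX8 at 92.2 ± 10.1 against 102 ± 17.1 TPM. All are nuclear subunits outside the catalytic core. Without COX4 the other 8 complex IV genes summed to 173 ± 15.9 TPM in the dChr strain and 182 ± 21.9 TPM in the control, and with COX4 to 202 ± 20.2 and 273 ± 18.3 TPM. COX7 and COX12, 2 further small subunits, varied more, with intervals from -0.24 to 1.09 and from -0.71 to 0.67.

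COX5A (YNL052W) and COX5B (YIL111W) encode alternative forms of subunit V, of which COX5A is the form used with oxygen and COX5B the one used at low oxygen. COX5A was at 18.1, 14.0 and 12.6 TPM in the dChr libraries against 12.1, 16.6 and 14.7 TPM in the controls, with overlap. COX5B was at 3.17, 2.34 and 2.93 TPM in the dChr libraries against 5.08, 4.49 and 3.96 TPM in the controls. Every dChr library of COX5B was below every control library, but it did not pass (log2 difference -0.53 ± 0.15 SE, limma adjusted p = 0.0700) except without mitochondrial and non-coding transcripts (0.0369). Adjusted p ran from 0.0369 to 0.188 over its 17 alternatives. The ratio of COX5A to COX5B was 5.72, 5.99 and 4.28 in the dChr and 2.38, 3.69 and 3.70 in the control libraries. The ratio was thus higher in each dChr library, and it was not tested. The genes are paralogues, so reads from matching stretches could be shared between them.

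**Figure D3:**
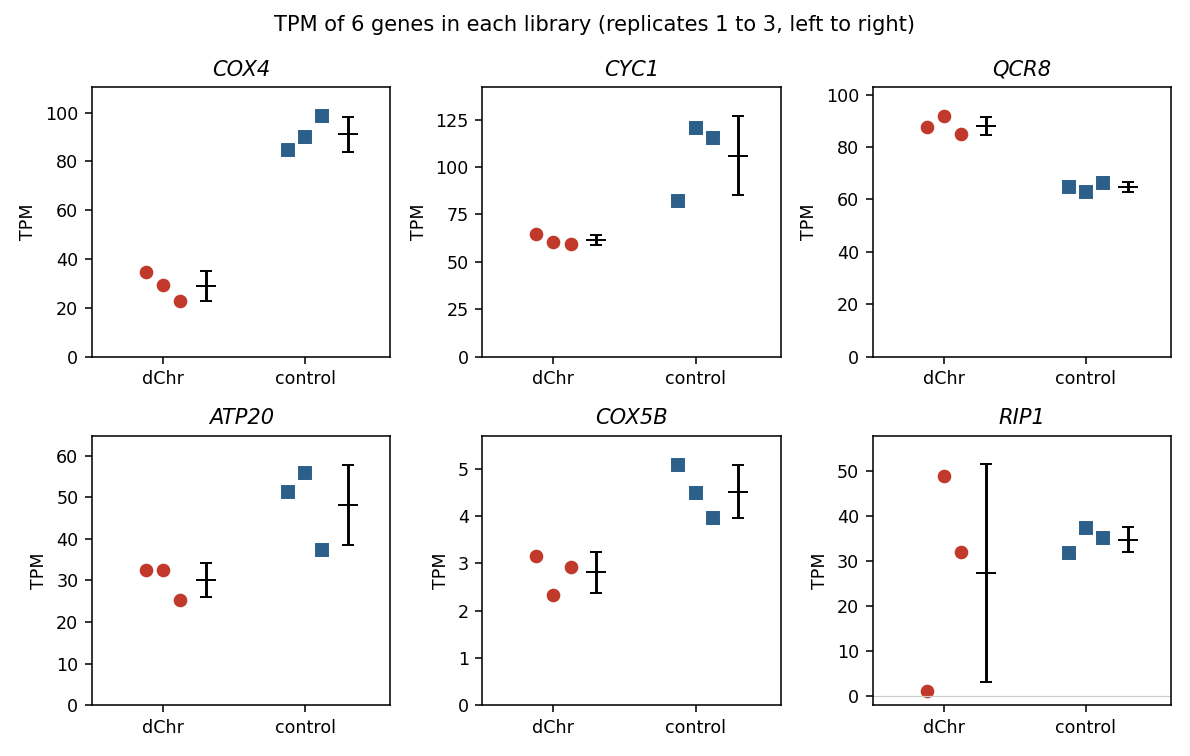
TPM in each library of COX4, CYC1, QCR8, ATP20, COX5B and RIP1; red circles are dChr and blue squares control libraries 1 to 3 from left to right, and the bar beside them is the mean with its SD (n = 3). The strains do not overlap in the first 5 genes, of which COX4, CYC1 and QCR8 were called, and RIP1 has 1 dChr library near 0.

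Cytochrome c carries electrons from complex III to complex IV. Its main form is CYC1 (YJR048W), with 1 coding exon at chrX:526335-526664. CYC1 was at 64.5, 60.7 and 59.4 TPM in the dChr libraries against 82.2, 121 and 115 TPM in the controls. The dChr libraries lay close together and below all controls, and control library 1 was the nearest to them. The mean was 1.72-fold lower in the dChr strain (log2 difference -0.76 ± 0.15 SE, limma adjusted p = 0.0232). The call was lost without any single library except control library 1 (adjusted p from 0.0611 to 0.0797, and 0.00459 without control library 1). CYC7 (YEL039C), the form made at low oxygen, was at 0.459, 1.22 and 0.569 TPM in the dChr libraries against 0.300, 0.510 and 0.736 TPM in the controls. These overlap, and CYC7 was not tested. The ratio of CYC1 to CYC7 was 140, 49.8 and 105 in the dChr libraries against 274, 237 and 156 in the controls. It was lower in each dChr library and was not tested, and its divisor is a level near or under 1 TPM. SDH3 (YKL141W) and SDH4 (YDR178W) of complex II were at 130 ± 11.1 against 129 ± 12.9 TPM and 159 ± 16.2 against 147 ± 21.6 TPM (dChr against control, SD, n = 3), and neither was called (limma adjusted p = 0.940 and 0.648). By library SDH4 was at 167, 169 and 140 TPM in dChr cells and 163, 157 and 123 TPM in control cells, with overlap.

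Neighbouring genes of the 3 called genes, looked up after their values were seen, gave a mixed picture. TPN1, the vitamin B6 transporter gene, lies 865 bases upstream of COX4 on the same strand. It was at 25.0, 32.6 and 31.3 TPM in the dChr libraries against 61.4, 58.1 and 50.4 TPM in the controls and was also called lower (log2 difference -0.92 ± 0.13 SE, limma adjusted p = 0.00697). The gene downstream of COX4, YGL188C-A, was listed under 0.25 TPM in each library. ERG20, which makes farnesyl pyrophosphate, lies 361 bases upstream of QCR8 on the same strand and was also called higher (0.48 ± 0.08 SE, limma adjusted p = 0.0128). HAL5, downstream of QCR8 on the opposite strand, was not called (0.118). Of the genes beside CYC1, ANB1 and UTR1, neither was called (0.979 and 0.905). None of the 37 genes overlaps another annotated gene on R64. Whether transcripts of these neighbours share reads was not tested.

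The partners encoded in mitochondrial DNA were not called: of 7 genes 6 were tested, 0 rose and 0 fell by limma, and 2 (OLI1 and ATP6) had an unadjusted p under 0.05. OLI1, the ring subunit of the ATP synthase, was at 1690 ± 104 against 1432 ± 64.7 TPM, and COB, cytochrome b, at 1184 ± 159 against 1342 ± 163 TPM (SD, n = 3). COX1 was at 1316 TPM in dChr library 2 and between 48.3 and 169 TPM in the other 5 libraries. ATP8 was listed at 0 in all 6.

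Genes that supply, assemble or regulate the chain were taken from 11 lists with 112 genes, the mitochondrial ones included. Of 100 tested, 6 rose and 6 fell, a share close to the background of 13.4%. By direction the background was 4.19% higher and 9.16% lower. Counts of the separate lists below rest on few genes, so they are not results about the lists. HAP4, the regulatory subunit of the Hap complex, was at 89.1, 99.2 and 78.3 TPM in the dChr libraries against 54.3, 68.4 and 57.4 TPM in the controls. It rose (log2 difference 0.56 ± 0.13 SE, limma adjusted p = 0.0348). Of the 32 tested respiratory chain and ATP synthase genes QCR8 alone was called higher, and a link to HAP4 was not tested. The HAP4 call was lost under 7 of 18 alternatives. Among them was the removal of any single library but dChr library 3 or control library 2 (limma adjusted p from 0.0910 to 0.113). Over all alternatives adjusted p ran from 0.0035 to 0.113. HAP3, another Hap subunit, was at 0.677, 1.21 and 0.558 TPM in the dChr libraries against 1.79, 4.69 and 1.44 TPM in the controls. Each dChr library of HAP3 was below each control library, but it was not called (log2 difference -0.91 ± 0.36 SE, limma adjusted p = 0.155). HAP2 was at 5.31 ± 0.566 against 4.95 ± 1.81 TPM and was not called, and HAP5 was under 1 TPM and not tested. HAP1, the haem-responsive activator, was at 41.3 ± 2.08 against 45.0 ± 5.42 TPM and was not called.

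Of 27 tested assembly and translation factors of complex IV, 1 rose and 2 fell, against 4.19% and 9.16% of all transcripts tested. COA4, an assembly factor of the intermembrane space, rose from 5.27 ± 0.537 to 12.4 ± 0.318 TPM (log2 difference 1.09 ± 0.11 SE, limma adjusted p = 0.00158), a call that held under every alternative. RCF1 and RCF2, which associate with complexes III and IV in supercomplexes, fell from 8.17 ± 0.966 to 4.70 ± 0.271 TPM and from 76.3 ± 14.8 to 50.6 ± 3.02 TPM. RCF1 lost its call without any single dChr library or control library 3 (0.0522 to 0.0583), and RCF2 was at the threshold (limma adjusted p = 0.0498) and lost its call under 10 of 18 alternatives. COX15, a haem A synthesis enzyme, was at 93.6 ± 7.89 against 91.9 ± 7.94 TPM.

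Of the genes that feed electrons in, NDI1, the internal NADH dehydrogenase, rose from 34.3 ± 1.84 to 47.7 ± 3.84 TPM (limma adjusted p = 0.0232, lost without mitochondrial and non-coding transcripts at 0.0587, without assembled transcripts at 0.106, and without dChr library 1 or 2 or control library 1 or 3 at 0.0661 to 0.101). It was 1 of 6 tested there, and 0 fell. SDH1 and SDH2, the catalytic subunits of complex II, were at 87.7 ± 8.59 against 70.2 ± 7.42 TPM and 28.0 ± 3.27 against 23.1 ± 4.04 TPM, and limma called 0 of 5 tested genes of that list (2 at an unadjusted p under 0.05). In coenzyme Q synthesis 1 of 11 tested genes was called: COQ2, the prenyltransferase, fell from 27.6 ± 3.23 to 18.5 ± 1.40 TPM (limma adjusted p = 0.0253, lost without assembled transcripts and without any single library but control library 1).

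HEM1 and HEM3, early enzymes of haem synthesis, fell from 104 ± 10.6 to 72.7 ± 1.69 TPM and from 92.3 ± 12.2 to 65.9 ± 0.79 TPM (limma adjusted p = 0.0186 and 0.0383). They were 2 of 8 tested there, and 0 rose, against 9.16% lower and 4.19% higher of all transcripts tested. Both calls were lost without assembled transcripts (limma adjusted p = 0.133 and 0.169). When a library was left out they were lost in 4 of 6 cases for HEM1 and 5 of 6 for HEM3. HEM3 was also not called when the variance was fitted without a trend on intensity (0.062). HEM15, the last enzyme of the path, was at 183 ± 14.0 against 147 ± 7.36 TPM and was not called (0.0741).

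In the list of ATP synthase assembly and regulation 2 of 12 rose and 0 fell, against 4.19% and 9.16% of all transcripts tested. STF2, described as a stabilizing factor of the inhibited enzyme, went up from 6.57 ± 0.482 TPM to 12.6 ± 2.38 TPM (limma adjusted p = 0.0145, but 0.0593 without dChr library 1). AEP3, a mitochondrial RNA factor, rose from 2.92 ± 0.590 to 5.29 ± 0.410 TPM (limma adjusted p = 0.0299, lost without any single library but control library 2). Among carriers of the inner membrane, AAC1, a minor ADP/ATP carrier, fell from 10.3 ± 1.66 to 5.22 ± 1.11 TPM (limma adjusted p = 0.0248, lost without any single library but dChr library 2). PIC2, a phosphate carrier, rose from 22.2 ± 2.71 to 33.0 ± 2.29 TPM (limma adjusted p = 0.0237, lost without assembled transcripts and without any single library but control library 2). PET9, the major ADP/ATP carrier, was at 276 ± 26.5 against 277 ± 15.3 TPM. No gene was called in the lists of complex III assembly and translation factors (0 of 11 tested by limma, 1 at an unadjusted p under 0.05) and of cytochrome c haem attachment (0 of 2 tested by limma, 0 at an unadjusted p under 0.05). In the first, CBP4 and CYT2 were at 21.3 ± 2.28 against 18.9 ± 1.25 TPM and 9.24 ± 1.30 against 9.79 ± 2.73 TPM (dChr against control). In the second, CYC3 and CYC2 were at 14.6 ± 1.94 against 18.6 ± 2.53 TPM and 7.35 ± 0.565 against 8.11 ± 0.186 TPM.

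**Figure D4:**
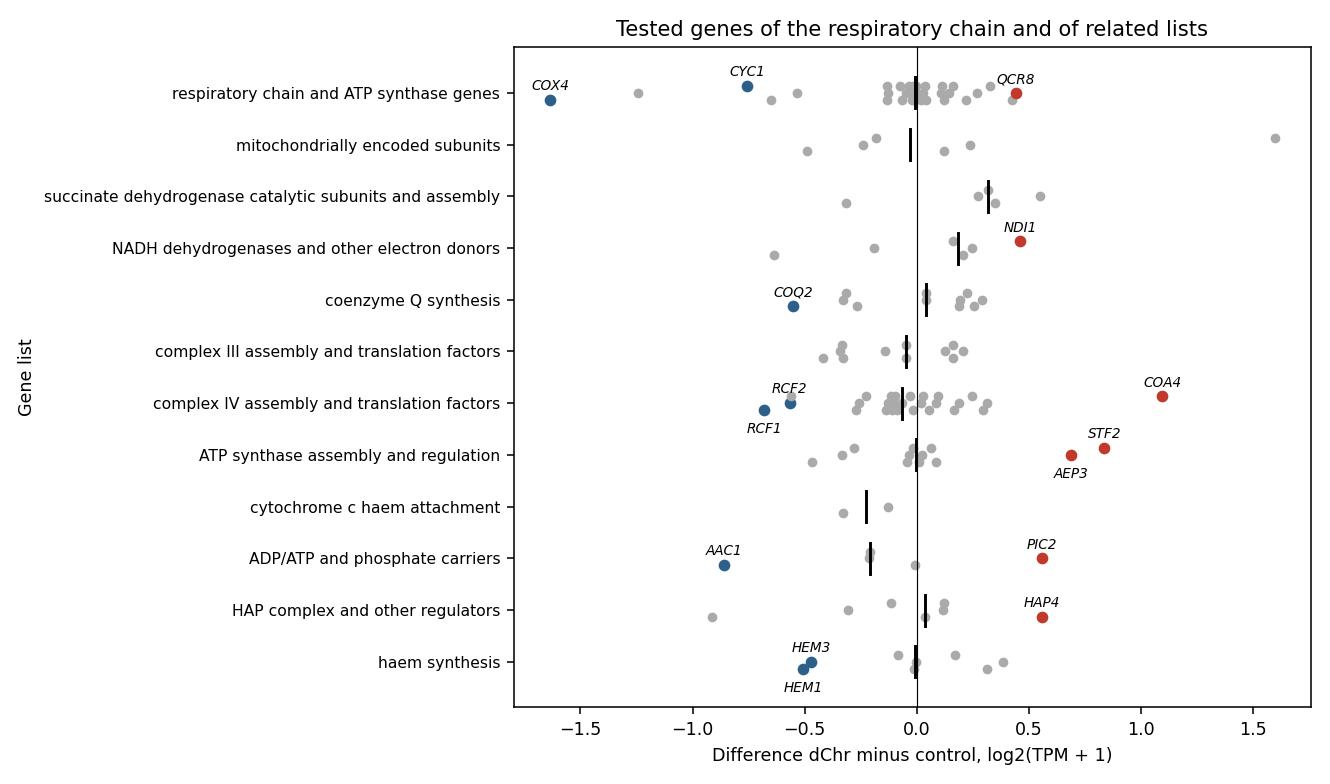
Difference between the strains, dChr minus control on the log2(TPM + 1) scale, for tested genes of the respiratory chain and ATP synthase (top row) and of 11 related lists; each point is a gene, red called higher, blue called lower and grey not called, and the black bar is the median of the list. Called genes are named; HAP4 and COA4 lie right of 0 and COX4 far left of it, while the medians of the lists lie between -0.23 and 0.32.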

How the data were processed

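RNA of 6 samples was measured, and the authors deposited 1 table of TPM with 1 column per library. The submitters' processing notes name R 3.6.0, StringTie 2.0, HISAT2 2.0.5, cutadapt 2.6 and DESeq2, with the build sacCer3. The sources used here do not give the strand setting, any filter or what each tool did. TPM do not keep read depth, so depth is unknown and no counting interval is given. Columns summed to between 970077 and 992087 TPM.

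Values were taken as log2(TPM + 1), and differences of low genes are understated on this scale. The 5938 transcripts whose mean reached 1 TPM were fitted in R 4.3.3 with the limma package 3.58.1 (eBayes, trended on intensity, two-sided, Benjamini-Hochberg over all transcripts, threshold 0.05). No count model was used. The fit was also run on simulated data with independent noise for each gene and library. That simulation lacks the shifts that genes shared within a library here, so it does not measure the error rate in these data. Intervals are 95% limits from the same fit. There were 12 alternatives with all libraries (pseudocounts 0.1 and 5, filters, scalings, variance models, a replicate block) and 6 that left out a library. Symbols of 5928 transcripts came from RefSeq R64 by locus tag or symbol, and promoter sequences from its genome.

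The genes and lists were chosen with earlier results of these data known. Given library by library are called genes, both isoform pairs, the highest and the lowest gene, INH1, HAP4 and the gene with the smallest p per complex; of the related lists, up to 2 called genes per direction, or else the 2 with the highest TPM, are named by their means. A few others are named beside them, among them other subunits and the neighbours, chosen after their values were seen. Other steps used scipy 1.17.1, numpy 2.4.6, pandas 2.3.3 and matplotlib 3.10.9 in Python 3.11.15.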

Additional observations from a re-analysis of the deposited data

How the results depend on the processing

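COX4 kept its call and direction under all 18 alternatives. The number of these genes called higher (1) became 3 with quantile normalization (ATP4, ATP17 and QCR8), 2 with the replicate block (CYT1 and QCR8), and 0 without mitochondrial and non-coding transcripts and without assembled transcripts; the number called lower (2) became 4 without mitochondrial and non-coding transcripts (ATP20, COX4, COX5B and CYC1). Leaving out a library gave 0 to 1 higher and 1 to 2 lower, with fewer samples in each fit. Without dChr library 1 or 2, COX4 was the only gene called, and without dChr library 3 or control library 2 QCR8 and COX4 were. Over all transcripts 249 rose and 544 fell; median-ratio scaling gave 507 rises, quantile normalization 555, 151 rose and 360 fell without assembled transcripts, and 113 to 262 rose and 282 to 417 fell when a library was left out. The cause of these shifts was not tested. The median difference of the genes stayed between -0.09 and 0.07. With the replicate block 268 rose and 566 fell, CYC1 was not called (adjusted p = 0.0513), and ATP20 and CYT1 were (0.0151 and 0.0499); of the related genes AEP3, HEM3 and RCF2 were not called (0.0539, 0.0537 and 0.06). No label ties a replicate number to a shared day. Libraries with equal numbers deviated from the mean of their strain with correlations of 0.09, -0.08 and 0.12. Libraries with unequal numbers gave correlations from -0.21 to 0.10, so the numbers were not taken as pairs. Depth is not known from TPM; genes of a few TPM are the least precise.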
